A study of Mus musculus with 14 samples.

Results

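The 40 genes described here are the mouse cell cycle and DNA replication genes of the series: 16 genes used in S phase, when DNA is copied, 22 genes used in G2 and mitosis (G2/M), and 2 genes of neither list, Ccnd1 and Ezh2. They were chosen by symbol, through the Ensembl gene IDs of the 14 count files, and are 40 of 55359 gene IDs. All 40 passed the filter on low counts, with the lowest count of any member in any library being 35 reads, for Cdc6. Ccnd1 encodes cyclin D1, which acts in G1, and Ezh2 encodes the histone methyltransferase of the Polycomb repressive complex.

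Dividing cells switch on these genes in waves. In late G1 and S phase the origin loader Cdc6, the Mcm2 to Mcm7 helicase, its partners Cdc45 and GINS, and the enzymes that make deoxynucleotides are used to copy DNA. In G2 and mitosis the kinase CDK1 with cyclins A and B, the Aurora and Polo kinases and the spindle proteins separate the chromosomes, and the anaphase-promoting complex ends the cycle by destroying the cyclins. Neurons of the mouse colliculus are born before birth, and the cells that divide there in the first postnatal days are mainly glial, vascular and meningeal.

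The superior colliculus, a midbrain region that receives retinal axons in its superficial layers, was dissected from ICR/CD-1 mice at postnatal day 6 into a superficial and a deep part. The animals had been injected in the eye, on the day of birth or the next day, with 50 mM carbenoxolone (cbx), a gap junction blocker used to remove retinal waves, or with saline as the vehicle. The 4 groups were cbx superficial (4 libraries), saline superficial (3), cbx deep (4) and saline deep (3), and the labels name no genetic change in any of them. Each library held the pooled tissue of 3 brains, so animals within a library cannot be told apart.

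Total counts ranged from 32004952 to 48776827 per library. Values below are CPM, read counts scaled to library size with factors from the trimmed mean of M-values (TMM), and a gene is called where edgeR's quasi-likelihood test, adjusted by Benjamini-Hochberg over 20330 genes, gave an adjusted p under 0.05. In bulk tissue, fewer cells of a type and less RNA per cell cannot be told apart. Xist, expressed in females, was between 0.572 and 1.94 CPM in the 2 libraries of saline pool 1, between 759 and 1127 CPM in those of cbx pool 4 and between 187 and 683 CPM in the other 10, so pools differed in this measure within and between treatments.

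Promoter sequence is shown for 6 members on which the results turn, since genes of the 2 phases are known to carry different promoter elements. G2/M genes often hold the cell cycle genes homology region (CHR, letters TTTGAA) and CCAAT boxes bound by NF-Y, and genes of late G1 and S phase hold sites for E2F factors (searched as TTTCCCGC, TTTCGCGC, TTTGCCGC and TTTGGCGC). The lines give the 170 bases before the transcript start, 5′ to 3′ on the gene's strand, from RefSeq promoters of build GRCm38.p6, with every match on either strand in capitals.
Ube2c, chr2:164769759-164769928, plus strand: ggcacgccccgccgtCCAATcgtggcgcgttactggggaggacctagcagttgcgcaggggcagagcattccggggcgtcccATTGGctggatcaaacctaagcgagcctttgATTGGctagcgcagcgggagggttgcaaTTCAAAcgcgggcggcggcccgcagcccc
Cdk1, chr10:69352913-69353082, minus strand: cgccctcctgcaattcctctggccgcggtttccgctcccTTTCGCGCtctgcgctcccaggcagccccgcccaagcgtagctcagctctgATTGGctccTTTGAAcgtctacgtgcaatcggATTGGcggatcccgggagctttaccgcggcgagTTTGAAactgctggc
Hmgb2, chr8:57511673-57511842, plus strand: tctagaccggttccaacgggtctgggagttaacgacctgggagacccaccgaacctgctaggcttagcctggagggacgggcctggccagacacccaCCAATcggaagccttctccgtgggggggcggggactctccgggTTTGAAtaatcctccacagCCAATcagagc
Mcm6, chr1:128359706-128359875, minus strand: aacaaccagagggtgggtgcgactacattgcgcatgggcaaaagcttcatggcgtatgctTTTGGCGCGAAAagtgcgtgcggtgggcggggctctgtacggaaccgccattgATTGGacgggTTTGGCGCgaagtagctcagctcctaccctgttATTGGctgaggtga
Mcm5, chr8:75109339-75109508, plus strand: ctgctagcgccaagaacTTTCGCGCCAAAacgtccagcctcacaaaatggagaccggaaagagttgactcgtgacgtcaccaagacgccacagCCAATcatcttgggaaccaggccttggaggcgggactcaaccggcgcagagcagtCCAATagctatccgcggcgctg
Cdc7, chr5:106964152-106964321, plus strand: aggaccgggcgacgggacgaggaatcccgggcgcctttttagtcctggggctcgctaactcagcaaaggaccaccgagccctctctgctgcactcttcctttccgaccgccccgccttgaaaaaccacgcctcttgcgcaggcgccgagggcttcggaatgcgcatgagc
The promoters of Ube2c, Cdk1 and Hmgb2, all G2/M genes, each held a CHR match close to the start, 29, 15 and 30 bases before it. Mcm6 and Mcm5, both S phase genes, held 2 overlapping E2F matches on opposite strands, starting 110 and 106 bases before the start of Mcm6 and 153 and 149 bases before that of Mcm5. Mcm6 had a further E2F match 47 bases before its start. In the 170 bases before either of the 2 annotated starts of Cdc7, the first of which is shown, none of the letters searched was found. A CHR match lay outside these stretches, 3 bases after the first start, at the same site as 237 bases before the second.

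Promoter windows from 250 bases before to 50 after the start were found for 33 of the 40 members, 35 windows in all. A CHR match stood in 14 of 19 G2/M windows (73.7%, 95% Wilson interval 51.2 to 88.2%), in 4 of 15 S phase windows (26.7%, 10.9 to 52.0%) and in 17.9% of all 32851 windows. The windows of Cdc7 overlap and share a CHR match, so the S phase windows are not all independent. By gene, the match stood in 3 of the 13 S phase members with a window. An E2F match stood in 1 G2/M window (5.26%, 0.935 to 24.6%), in 5 S phase windows (33.3%, 15.2 to 58.3%) and in 2.26% of all windows. CCAAT was found in 84.2% of G2/M windows (62.4 to 94.5%), 66.7% of S phase windows (41.7 to 84.8%) and 37.4% of all windows. These are counts of letters in a window, on both strands, and do not show that a factor is bound.

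Scaled by exon length and library size (RPKM), the member levels spanned a wide range. In cbx superficial libraries they ran from 0.449 RPKM for Cdc6, the loader of the helicase, to 20.8 RPKM for Pcna, the sliding clamp of the polymerases. Hmgb2, a DNA-bending chromatin protein, stood at 17.5 RPKM, Ccnd1 at 12.3 RPKM and the helicase subunit Mcm7 at 9.01 RPKM in the same libraries. Pcna at 13.8 RPKM and Cdc6 at 0.226 RPKM were also the ends of the range in saline deep libraries.

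The superficial layer held more transcript of nearly all members than the deep layer, in cbx and in saline pools, and the G2/M genes differed by more than the S phase genes. In cbx pools 38 of 40 members were higher and 0 lower in superficial libraries, where 18.1% of all genes tested were higher and 14.1% lower. In saline pools 30 of 40 were higher and 0 lower, against 9.67% of all genes higher and 8.73% lower. At an unadjusted p under 0.05, 38 members passed in cbx pools, of 8440 of 20330 genes, and 36 in saline pools, of 5917 genes, again with 0 members lower, and DESeq2 and limma-voom also gave 0 lower. All 22 G2/M members were called in cbx pools and 19 in saline pools, and 14 and 10 of the 16 S phase members. The median log2 difference of the G2/M members was 0.93 in cbx pools and 0.84 in saline pools, and that of the S phase members 0.64 and 0.49, while the median of all genes was 0.02 and 0.04. The upper quartile of the S phase members, 0.76 in cbx pools and 0.57 in saline pools, lay below the lower quartile of the G2/M members, 0.84 and 0.66.

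**Figure D1:**
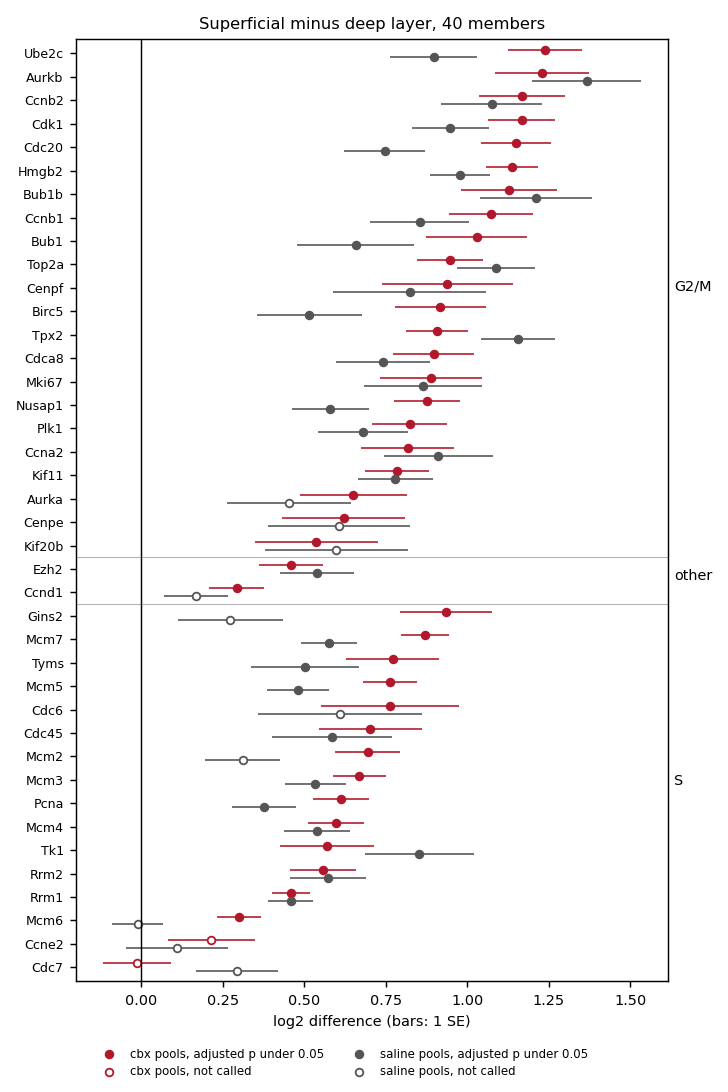
Log2 difference of superficial minus deep libraries for each of the 40 members (points, with bars of 1 SE from edgeR), in cbx pools (4 against 4 libraries, red) and saline pools (3 against 3, grey); filled points had an adjusted p under 0.05. G2/M members, drawn at the top, run from 0.45 for Aurka to 1.37 for Aurkb, both in saline pools. The S phase members at the bottom include Mcm6, near 0 in saline pools only, Cdc7, near 0 in cbx pools only, and Ccne2, called in neither.

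Summed over the 16 S phase members, the level was 345, 322, 335 and 329 CPM in cbx superficial libraries and 299, 309 and 290 CPM in saline superficial libraries. It was 229, 221, 224 and 238 CPM in cbx deep libraries and 223, 233 and 220 CPM in saline deep libraries. Every superficial library lay above every deep one. The sum of the 22 G2/M members was 315, 312, 352 and 350 CPM in cbx superficial libraries and 321, 325 and 288 CPM in saline superficial libraries. For deep libraries it was 165, 160, 174 and 180 CPM in cbx libraries and 168, 170 and 165 CPM in saline libraries. Deep libraries thus held less of both phases, and the G2/M sum was the one further apart between layers.

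**Figure D2:**
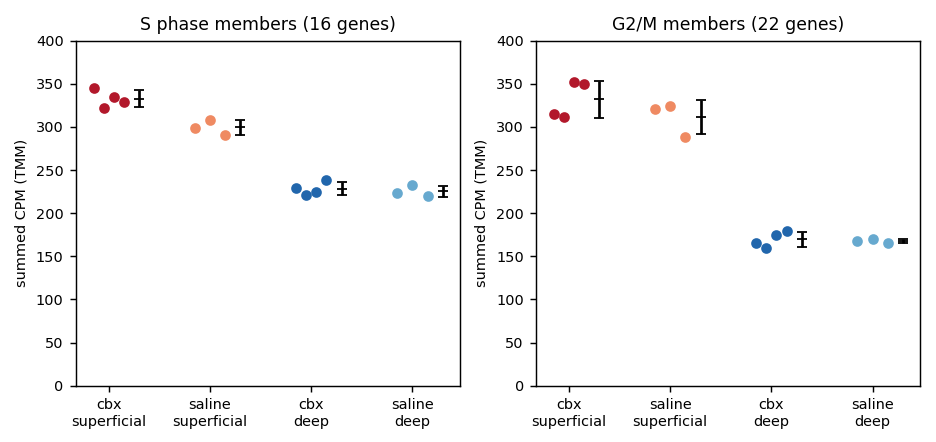
Summed TMM-scaled CPM of the S phase members (left) and the G2/M members (right) in each of the 14 libraries, with the mean and SD of each group in black (n = 4 cbx and 3 saline libraries per layer). For both sums all superficial libraries lie above all deep libraries, and the deep G2/M sums lie between 160 and 180 CPM.

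Layers with the same replicate number were taken as 1 pool of brains, from the correlation of their deviations (r 0.184 to 0.395). The labels do not state this. With libraries paired in this way, the ratio of superficial to deep was above 1 for both sums in all 7 pools. For the S phase sum it was 1.51, 1.46, 1.49 and 1.38 in cbx pools 1 to 4 and 1.34, 1.33 and 1.32 in saline pools 1 to 3. For the G2/M sum it was 1.91, 1.95, 2.02 and 1.95 in cbx pools and 1.91, 1.91 and 1.74 in saline pools. The G2/M ratio was the higher one in each pool. The sum of G2/M over S was 0.999 ± 0.071 in cbx superficial, 1.04 ± 0.041 in saline superficial, 0.743 ± 0.027 in cbx deep and 0.745 ± 0.013 in saline deep libraries (SD, n = 4, 3, 4 and 3), so deep libraries had less G2/M transcript for a given amount of S phase transcript. Of the 40 members, 35 were higher in the superficial library of all 7 pools and 5 in 6 pools, namely Kif20b, Cenpe, Ccne2, Cdc7 and Mcm6. The share of all genes that were higher in all 7 pools was not counted, so these counts have no background to be set against.

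Among the genes of the replicative helicase and its loading, 9 of 10 were called higher in superficial cbx libraries and 5 of 10 in superficial saline libraries, with medians of 0.70 and 0.51. Mcm7 (ENSMUSG00000029730), a helicase subunit, was at 41.4, 38.2, 41.3 and 38.6 CPM in cbx superficial and 39.0, 38.3 and 36.6 CPM in saline superficial libraries. It was at 20.2, 21.3, 21.6 and 24.2 CPM in cbx deep and 27.3, 26.0 and 23.0 CPM in saline deep libraries. The layers did not overlap, and the difference was 0.87 (SE 0.07, adjusted p = 2.36e-08) in cbx and 0.58 (SE 0.08, adjusted p = 5.19e-05) in saline pools. Mcm5 (ENSMUSG00000005410) was at 21.6, 22.2, 24.6 and 21.6 CPM in cbx superficial against 13.5, 11.9, 13.6 and 13.9 CPM in cbx deep libraries. Its saline libraries were at 20.02, 21.4 and 18.2 CPM in the superficial and 14.4, 13.5 and 14.8 CPM in the deep layer, for differences of 0.76 (SE 0.08) and 0.48 (SE 0.10) in cbx and saline pools. The remaining subunits of the helicase that moved were of the same order. Mcm3 (ENSMUSG00000041859) differed by 0.67 (SE 0.08) in cbx pools, from values of 23.9, 20.5, 22.7 and 22.5 CPM in superficial and 14.6, 13.8, 13.2 and 14.7 CPM in deep libraries, and by 0.53 (SE 0.09) in saline pools, from 21.7, 19.9 and 18.4 CPM against 13.1, 14.6 and 13.7 CPM. Mcm4 (ENSMUSG00000022673) differed by 0.60 (SE 0.09) in cbx pools, from 23.8, 21.3, 22.3 and 20.4 CPM in superficial and 15.5, 13.5, 13.7 and 15.4 CPM in deep libraries, and by 0.54 (SE 0.10) in saline pools, from 18.8, 23.3 and 19.6 CPM against 13.99, 14.3 and 14.2 CPM. In both genes no deep library reached a superficial one of its treatment.

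Mcm6 and Cdc7 stood apart from the rest of this group. Mcm6 (ENSMUSG00000026355), a subunit of the same hexamer, was at 28.7, 30.3, 28.7 and 32 CPM in cbx superficial and 23.7, 25.3, 24.7 and 23.5 CPM in cbx deep libraries, a difference of 0.30 (SE 0.07, adjusted p = 0.00169). Its saline libraries overlapped, with 25.7, 27.2 and 24.4 CPM in the superficial and 25.3, 26.3 and 26.2 CPM in the deep layer, a difference of -0.01 (SE 0.08, adjusted p = 0.951). Cdc7 (ENSMUSG00000029283), the kinase that phosphorylates the helicase to fire origins, was at 23.3, 23.0, 23.3 and 25.5 CPM in cbx superficial and 21.9, 28.4, 21.7 and 23.9 CPM in cbx deep libraries, which overlapped (-0.01, SE 0.10, adjusted p = 0.948). In saline pools Cdc7 was at 15.02, 18.2 and 15.6 CPM in the superficial and 12.97, 15.6 and 11.2 CPM in the deep layer, which overlapped, a difference of 0.29 (SE 0.12, adjusted p = 0.117). With the pool as a block that difference was 0.30 and passed (adjusted p = 0.0366). Mcm6 and Cdc7 were the members whose fitted difference had the other sign, Mcm6 in saline and Cdc7 in cbx pools, and neither negative value passed. Ccne2, cyclin E2, the partner of CDK2 at the start of S phase, did not pass in either (0.22, SE 0.13 in cbx and 0.11, SE 0.16 in saline pools).

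The 4 enzymes of deoxynucleotide supply were all called in both treatments, with medians of 0.56 in cbx and 0.54 in saline pools. Rrm1 (ENSMUSG00000030978), the large subunit of ribonucleotide reductase, was at 49.8, 48.9, 51.9 and 51.9 CPM in cbx superficial against 36.9, 35.1, 37.3 and 38.0 CPM in cbx deep libraries. In saline pools it was at 54.1, 51.7 and 50.2 CPM against 37.0, 40.2 and 36.3 CPM. The difference was 0.46 in both treatments (SE 0.06 in cbx and 0.07 in saline pools). Rrm2, the small subunit, differed by 0.56 and 0.57, Tk1, thymidine kinase, by 0.57 and 0.85, and Tyms, thymidylate synthase, by 0.77 and 0.50 in cbx and saline pools. Pcna differed by 0.61 (SE 0.09) and 0.38 (SE 0.10).

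The G2/M members with the smallest p had several roles. Hmgb2 (ENSMUSG00000054717) was at 55.5, 48.1, 54.8 and 52.4 CPM in cbx superficial and 57.5, 60.8 and 58.6 CPM in saline superficial libraries. It was at 23.4, 20.2, 25.6 and 26.6 CPM in cbx deep and 31.9, 29.3 and 28.6 CPM in saline deep libraries. Each superficial value was well above each deep one, with a difference of 1.138 (SE 0.08, adjusted p = 1.64e-09) in cbx and 0.98 (SE 0.09, adjusted p = 1.94e-07) in saline pools. Cdk1 (ENSMUSG00000019942), the mitotic kinase, was at 16.3, 14.9, 15.2 and 14.5 CPM in cbx superficial and 6.52, 7.45, 6.01 and 7.16 CPM in cbx deep libraries (1.17, SE 0.10). In saline pools Cdk1 was at 13.8, 13.4 and 14.1 CPM in the superficial and 7.09, 6.13 and 8.18 CPM in the deep layer (0.95, SE 0.12). The cyclins that activate it moved with it: Ccna2 by 0.82 and 0.91, Ccnb1 by 1.07 and 0.85, and Ccnb2 by 1.17 and 1.07 in cbx and saline pools.

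The partners of the anaphase-promoting complex were among the members furthest apart between layers in cbx pools. Ube2c (ENSMUSG00000001403), its ubiquitin-conjugating enzyme, was at 12.8, 11.5, 10.2 and 11.3 CPM in cbx superficial and 5.18, 4.56, 4.34 and 5.33 CPM in cbx deep libraries (1.24, SE 0.11, a fold of 2.36). In saline pools it was at 7.94, 8.82 and 8.35 CPM in the superficial and 4.67, 4.86 and 3.97 CPM in the deep layer (0.90, SE 0.13, a fold of 1.86). The layers did not overlap in either treatment. Cdc20 (ENSMUSG00000006398), its mitotic activator, was at 14.9, 11.5, 14.4 and 12.1 CPM in cbx superficial and 6.24, 5.24, 5.83 and 6.54 CPM in cbx deep libraries (1.15, SE 0.11). Its saline libraries were at 10.9, 12.05 and 11.4 CPM in the superficial and 6.55, 6.83 and 7.11 CPM in the deep layer (0.75, SE 0.12).

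Of 7 mitotic kinase and checkpoint genes, 7 were called in cbx and 6 in saline pools, and of 6 spindle and kinetochore genes 6 and 4. Aurka, a kinase of the spindle poles, was at 0.45 (SE 0.19, adjusted p = 0.11) in saline pools, and Cenpe and Kif20b were at 0.61 and 0.60 there (adjusted p = 0.0607 and 0.0653), all 3 not called. Aurkb (ENSMUSG00000020897), the kinase of the chromosomal passenger complex, was at 7.29, 6.29, 7.82 and 7.03 CPM in cbx superficial against 2.51, 3.39, 3.64 and 2.62 CPM in cbx deep libraries (1.23, SE 0.14). In saline pools it was at 7.34, 7.61 and 7.45 CPM in the superficial and 2.42, 3.20 and 3.06 CPM in the deep layer (1.37, SE 0.17, a fold of 2.58). Its partners differed by less, Cdca8 (borealin) by 0.90 and 0.74 and Birc5 (survivin) by 0.92 and 0.52 in cbx and saline pools. Tpx2 (ENSMUSG00000027469), a spindle assembly factor, was at 16.8, 18.7, 17.96 and 20.5 CPM in cbx superficial against 10.9, 8.93, 10.2 and 9.40 CPM in cbx deep libraries (0.91, SE 0.10). In saline pools Tpx2 was at 18.02, 18.4 and 15.5 CPM in the superficial and 7.28, 8.16 and 7.85 CPM in the deep layer (1.16, SE 0.11). Top2a (ENSMUSG00000020914), the topoisomerase that untangles sister chromatids, was at 30.4, 35.6, 42.1 and 44.7 CPM in cbx superficial and 18, 19.1, 20.2 and 22.04 CPM in cbx deep libraries (0.95, SE 0.10). In saline pools it was at 33.8, 36.9 and 31.3 CPM in the superficial and 16.4, 15.8 and 15.8 CPM in the deep layer (1.09, SE 0.12). The checkpoint genes Bub1b and Bub1 differed by 1.13 and 1.03 in cbx pools and by 1.21 and 0.66 in saline pools.

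Ezh2 (ENSMUSG00000029687), of neither phase list, was at 23.8, 23.7, 21.5 and 23.8 CPM in cbx superficial against 15, 16.6, 18.6 and 17.3 CPM in cbx deep libraries (0.46, SE 0.10). In saline pools it was at 20.9, 27.9 and 22.1 CPM in the superficial and 14.8, 15.7 and 18.3 CPM in the deep layer (0.54, SE 0.11), and it was called in both treatments. Ccnd1 (ENSMUSG00000070348) was at 52.8, 58.0, 63.0 and 58.1 CPM in cbx superficial against 50.0, 44.0, 50.6 and 44.7 CPM in cbx deep libraries (0.29, SE 0.08, adjusted p = 0.0115). In saline pools Ccnd1 overlapped, with 49.2, 46.2 and 39.2 CPM in the superficial and 45.2, 37.9 and 36.6 CPM in the deep layer (0.17, SE 0.10, adjusted p = 0.279).

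**Figure D3:**
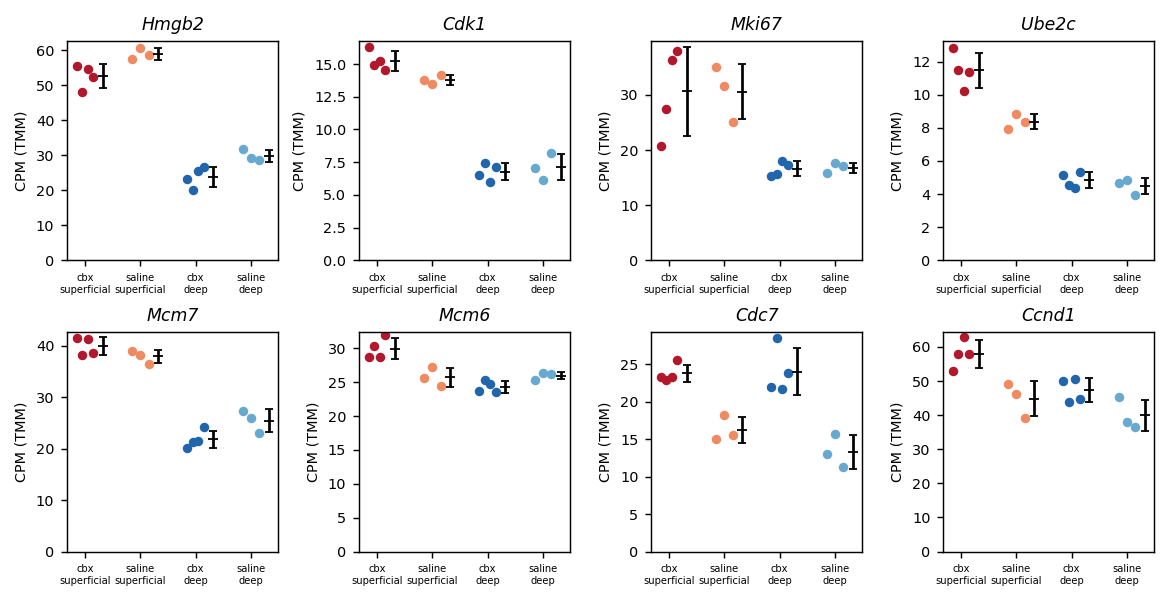
TMM-scaled CPM of 8 members in each of the 14 libraries, with the mean and SD of each group in black (n = 4 cbx and 3 saline libraries per layer). Hmgb2, Cdk1, Mki67, Ube2c and Mcm7 separate by layer, Mcm6 is apart between layers in cbx pools (28.7 to 32 against 23.5 to 25.3 CPM) and overlaps in saline pools, and Cdc7 is apart by treatment in both layers.

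The weaker layer calls were lost when single libraries were left out, for several genes whichever of many libraries it was. In cbx pools Ccnd1 lost its call without cbx deep replicate 2 (adjusted p = 0.0696), and Cenpe, a kinetochore motor, without cbx deep replicate 2 (0.0767) or cbx superficial replicate 4 (0.0722). Kif20b, a mitotic kinesin, lost it without any one of cbx deep replicates 1, 2 and 4 and cbx superficial replicates 3 and 4 (0.0526 to 0.133). In saline pools Birc5 (0.0693 to 0.116) and Cenpf (0.0532 to 0.1002) lost their calls without any one saline library except superficial replicate 3, and Tyms (0.0837 to 0.131) without any except superficial replicate 2. Cdc45 lost it without saline deep replicate 2 or 3 or superficial replicate 2 or 3 (0.0602 to 0.156), Bub1 without saline deep replicate 1 or 3 (0.0538 and 0.0753) and Pcna without saline deep replicate 1 (0.0546). With the pool as a block, 34 members were called in saline pools, and besides Cdc7 these included Cenpe (adjusted p = 0.0248), Kif20b (0.0366) and Mcm2 (0.0261), which had missed the threshold without it. Calls over all 20330 genes rose as well with this block in saline pools, from 3739 to 4662.

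Markers of other cell types moved between the layers too. All 8 meningeal fibroblast markers were higher in superficial libraries of both treatments, with summed levels of 635 to 1203 CPM in cbx superficial, 486 to 720 CPM in saline superficial, 39.7 to 54.4 CPM in cbx deep and 61.0 to 69.6 CPM in saline deep libraries. All 5 markers of macrophages at brain borders were higher as well, and 5 of 7 endothelial markers in each treatment. Of 8 neural progenitor markers, 5 were higher in cbx and 4 in saline superficial libraries, Vim by 2.11 and 1.73. The sums of this list were less far apart than Vim. They were 1941 to 2528 CPM in cbx superficial and 1922 to 2019 CPM in saline superficial libraries. In deep libraries they were 1619 to 1879 CPM in cbx and 1775 to 1886 CPM in saline pools. Of 8 astrocyte markers, 4 were higher and 1 lower in cbx pools and 2 higher and 2 lower in saline pools, with summed levels of 2698 to 3218 CPM in cbx superficial, 2838 to 3500 CPM in saline superficial, 1889 to 2188 CPM in cbx deep and 2197 to 2690 CPM in saline deep libraries. Of 6 pericyte markers, 3 were higher and 1 lower in cbx and 2 higher in saline pools, with sums of 363 to 486, 324 to 386, 149 to 194 and 193 to 202 CPM in the same order of groups. The astrocyte and pericyte sums did not overlap between layers within either treatment. Microglia markers were 1 higher and 3 lower of 8 in cbx pools and 7 lower in saline pools. All 8 markers of oligodendrocyte precursors, a dividing glial cell of the young brain, were lower in superficial libraries, with medians of -0.57 in cbx and -0.73 in saline pools. Of 5 tested markers of cerebellar granule precursors, which divide next to the colliculus at this age, 3 were higher in each treatment, while Atoh1 and Gabra6 had 0 counts in all 14 libraries, which allows at most 0.0615 to 0.0937 CPM. Sums of immature neuron markers were 2844 to 3292 CPM in cbx superficial and 2347 to 2726 CPM in cbx deep libraries. In saline pools they were 2858 to 3114 CPM in the superficial and 2526 to 2655 CPM in the deep layer. Sums of neuron markers overlapped between layers in both treatments. They were 2346 to 2750 against 2729 to 3268 CPM in cbx and 2664 to 3007 against 2990 to 3158 CPM in saline pools. The part of these cell types in the differences of the members was not tested.

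Other genes of the pathway showed the layer difference in a lesser share. Of 31 further S phase genes, 21 were higher in cbx superficial and 8 in saline superficial libraries with 0 lower, and Uhrf1, which carries DNA methylation through replication, differed by 0.89 and 0.76. Of 36 further G2/M genes, 31 were higher and 2 lower in cbx pools and 26 higher and 1 lower in saline pools, with medians of 0.71 and 0.67. Of 28 origin and polymerase genes, 14 were higher and 1 lower in cbx pools and 4 higher in saline pools. Of 12 tested inhibitors of cyclin-dependent kinases and related brakes of the cycle, 5 were higher and 1 lower in cbx pools and 5 higher and 2 lower in saline pools. Cdkn2c (p18) was at 14.5 ± 0.85 CPM in cbx superficial against 5.5 ± 0.88 CPM in cbx deep libraries (SD, n = 4 each), and differed by 1.40 in cbx and 1.24 in saline pools. Cdkn1b (p27), an inhibitor found in cells that leave the cycle, differed by 0.67 in cbx and 0.43 in saline pools. Of 15 tested E2F and DREAM genes, 10 were higher in cbx and 4 in saline pools, and Foxm1, an activator of G2/M genes, differed by 0.70 and 0.76.

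**Figure D4:**
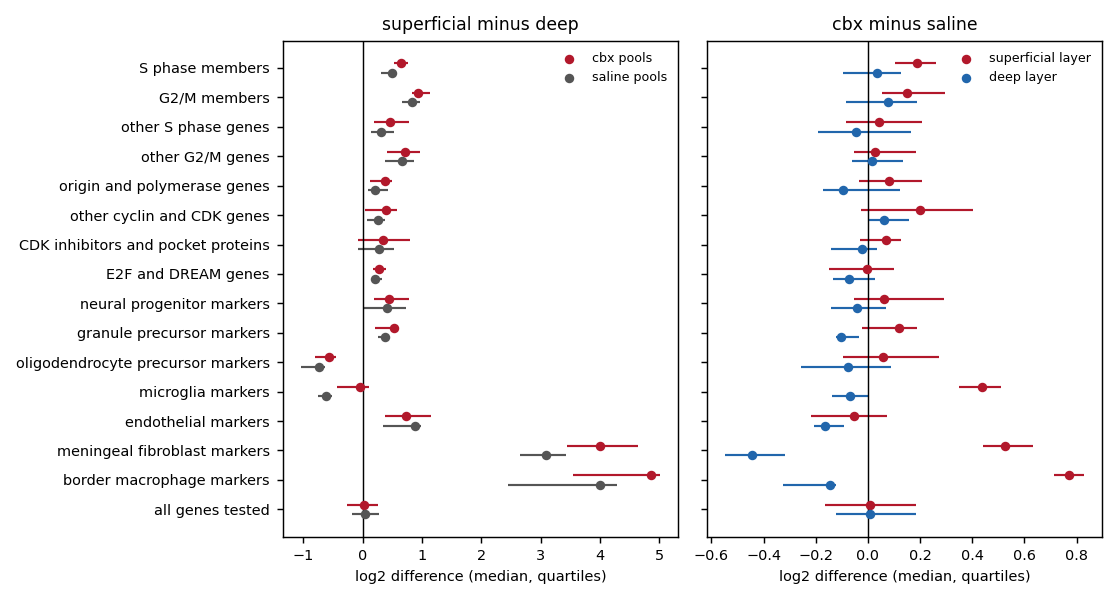
Median (points) and quartiles (lines) of the log2 differences of each gene list, for superficial minus deep libraries (left) and cbx minus saline libraries (right). The G2/M and S phase members lie to the right of all genes tested between layers, meningeal and border macrophage markers lie furthest to the right, and oligodendrocyte precursor markers lie to the left.

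Injection of cbx, the treatment meant to remove retinal waves, was compared with saline within each layer. In the superficial layer 3 of 40 members were higher in cbx libraries, Cdc7, Ccnd1 and Ube2c, and 0 were lower, where 2.68% of all genes tested were higher and 1.65% lower. At an unadjusted p under 0.05, 13 members passed, all higher, of 4179 of 20330 genes, and DESeq2 and limma-voom each called 3 members higher and 0 lower. Among deep libraries 1 member was higher in cbx, Cdc7, and 0 were lower, against 1.06% and 0.777% of all genes. At an unadjusted p under 0.05, 7 members passed there, 4 of them higher, of 3118 of 20330 genes. DESeq2 called 1 higher and 1 lower, and limma-voom 1 higher and 0 lower. The median difference was 0.19 for S phase and 0.15 for G2/M members in the superficial layer and 0.03 and 0.08 in the deep layer, with 0.01 for all genes in both.

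**Figure D5:**
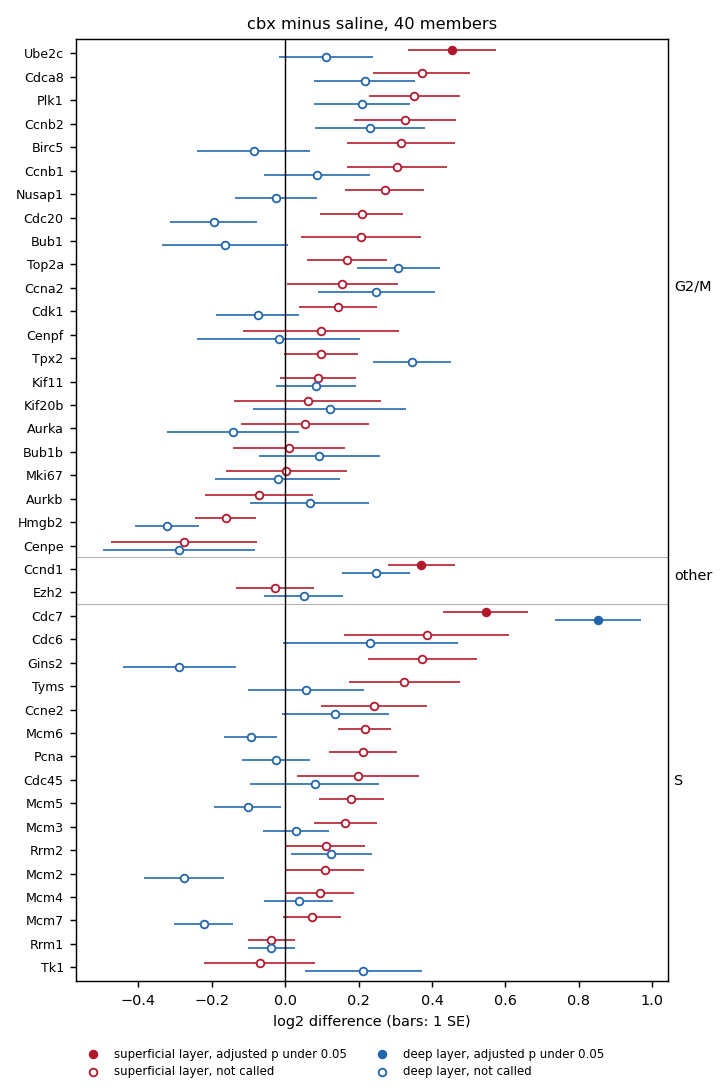
Log2 difference of cbx minus saline libraries for each of the 40 members (points, with bars of 1 SE from edgeR), in the superficial layer (red) and the deep layer (blue), with 4 cbx and 3 saline libraries in each; filled points had an adjusted p under 0.05. Ube2c, Ccnd1 and Cdc7 are filled in the superficial layer, and Cdc7 alone in the deep layer.

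Cdc7 was the member called in both layers. With the values given above, each of the 4 cbx libraries was higher than each of the 3 saline libraries in the superficial layer, where the difference was 0.55 (SE 0.12, adjusted p = 0.0131, a fold of 1.46). The same held in the deep layer, with 0.85 (SE 0.12, adjusted p = 0.00221, a fold of 1.81). The deep call held without each library in turn. The superficial call was lost without saline superficial replicate 1 or 3 (adjusted p = 0.0623 each). No exon of another annotated gene overlapped those of Cdc7. Without saline pool 1 and cbx pool 4 together, Cdc7 was at 0.46 in the superficial (adjusted p = 0.178) and 0.84 in the deep layer (adjusted p = 0.0522), neither called.

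Ccnd1 averaged 58.0 ± 4.2 CPM in cbx superficial and 44.8 ± 5.2 CPM in saline superficial libraries (SD, n = 4 and 3), a difference of 0.37 (SE 0.09, adjusted p = 0.0287) between groups that did not overlap. Deep libraries averaged 47.3 ± 3.4 CPM in cbx and 39.9 ± 4.6 CPM in saline libraries, which overlapped (0.25, SE 0.09, adjusted p = 0.192). The superficial call was lost without saline superficial replicate 2 (0.0947) or 3 (0.134) or cbx superficial replicate 2 (0.0535) or 3 (0.0586). Ube2c averaged 11.5 ± 1.1 CPM in cbx superficial and 8.37 ± 0.44 CPM in saline superficial libraries (0.45, SE 0.12, adjusted p = 0.0390). Each cbx value was above each saline value. Deep libraries of Ube2c averaged 4.85 ± 0.48 CPM in cbx and 4.50 ± 0.47 CPM in saline libraries (0.11, SE 0.13). Its superficial call was lost without any one library except cbx superficial replicate 3 (0.0552 to 0.140). About 23.4% of the exon bases of Ccnd1 overlap LTO1 and 22.8% of those of Ube2c overlap Tnnc2, both on the opposite strand, and whether reads were counted by strand is not given in the sources used here. LTO1 averaged 16.4 CPM and Tnnc2 0.0184 CPM over the 14 libraries.

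The remaining members passed in neither layer. Hmgb2 was at -0.32 (SE 0.09, adjusted p = 0.0611) in the deep layer, where each cbx library was below each saline library, and at -0.16 (SE 0.08, adjusted p = 0.283) in the superficial layer. It passed as lower in the deep layer with DESeq2 (adjusted p = 0.0162) and without cbx deep replicate 4 (0.0496). Mki67, a protein that coats mitotic chromosomes and the usual marker of cycling cells, averaged 30.6 ± 8.0 CPM in cbx superficial and 30.6 ± 5.0 CPM in saline superficial libraries, and 16.6 ± 1.4 CPM in cbx deep and 16.8 ± 0.94 CPM in saline deep libraries. Its cbx differences were 0.00 (SE 0.17) and -0.02 (SE 0.17). The Ezh2 values were -0.03 (SE 0.11) among superficial and 0.05 (SE 0.11) among deep libraries.

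The cbx difference was compared between layers as an interaction, superficial minus deep. With edgeR 0 members and 0 of 20330 genes passed, and DESeq2 and limma-voom also called 0 members. At an unadjusted p under 0.05 edgeR gave 6 members, Gins2, Mcm6, Mcm7, Mcm2, Cdc20 and Mcm5, all above 0, of 1699 genes. Gins2 (ENSMUSG00000031821), a subunit of GINS, was at 7.78, 5.41, 5.74 and 6.82 CPM in cbx superficial and 4.63, 5.55 and 4.71 CPM in saline superficial libraries. It was at 3.16, 3.49, 3.06 and 3.74 CPM in cbx deep and 4.26, 3.96 and 4.10 CPM in saline deep libraries, and the interaction was 0.66 (SE 0.21, adjusted p = 0.426). The cbx values of Gins2 were thus mostly above saline in the superficial and all below it in the deep layer, a pattern that did not pass the adjustment. Of the exon bases of Gins2, 67.3% overlap Gse1 on the opposite strand, which averaged 37.4 CPM, so its level is uncertain. The interaction was 0.31 (SE 0.10, adjusted p = 0.429) for Mcm6 and 0.29 (SE 0.11, adjusted p = 0.498) for Mcm7.

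Cyclins that act with cyclin D1 in G1 were also called. Of 12 further cyclin and CDK genes, 3 were higher in cbx superficial libraries and 0 lower. Ccnd3, cyclin D3, averaged 36.8 ± 6.2 CPM in cbx and 22.2 ± 1.1 CPM in saline superficial libraries (SD, n = 4 and 3), a difference of 0.73 (SE 0.12, adjusted p = 0.00334). Ccnd2, cyclin D2, averaged 107 ± 7.7 CPM in cbx and 78.4 ± 3.9 CPM in saline superficial libraries (0.45, SE 0.08, adjusted p = 0.00554). Their calls held without each library in turn. Over all alternative fits each was called in 16 of 19, with an adjusted p of up to 0.266 for Ccnd3 and 0.285 for Ccnd2. Cdk4, the kinase that these cyclins activate, averaged 112 ± 15 CPM in cbx and 85.8 ± 3.2 CPM in saline superficial libraries (0.39, SE 0.08, adjusted p = 0.0138), a call lost without saline superficial replicate 2 (0.0893). Deep libraries of Ccnd2 averaged 42.3 ± 2.5 CPM in cbx and 33.8 ± 4.3 CPM in saline libraries (0.33, SE 0.08, adjusted p = 0.0496), a call lost without any one library except saline deep replicate 1 (0.0697 to 0.239).

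Among the other lists few genes moved with cbx. Pola1, Tmpo, Rpa3, Cdkn1c and Rb1 were higher in cbx superficial libraries, by 0.45, 0.22, 0.47, 0.70 and 0.26, and each lost its call without at least 1 of the 7 libraries (adjusted p = 0.0513 to 0.187). In the deep layer Exo1, a DNA repair nuclease, was lower in cbx libraries (-0.84, SE 0.19, adjusted p = 0.0289), as was Usp1, a deubiquitinase of DNA repair (-0.33, SE 0.08, adjusted p = 0.0403). The call of Exo1 was lost without any one library except cbx deep replicate 3 (0.0519 to 0.154), and that of Usp1 without any one library (0.0546 to 0.175).

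Some markers of non-neural cells were also higher in cbx superficial libraries. Of 8 meningeal fibroblast markers 4 were higher, with a median of 0.52, and of 8 microglia markers 6 were higher, with a median of 0.44. The summed microglia level was 309 to 324 CPM in cbx superficial and 234 to 257 CPM in saline superficial libraries. Meningeal sums overlapped, at 635 to 1203 CPM in cbx superficial and 486 to 720 CPM in saline superficial libraries. In the same order, endothelial sums were 330 to 408 and 381 to 394 CPM and pericyte sums 363 to 486 and 324 to 386 CPM, which overlapped too. Of 5 border macrophage markers 0 passed (median 0.77, with 4 at an unadjusted p under 0.05), of 5 red cell markers 1 was higher, and of 8 neural progenitor markers 1, Vim, by 0.33. Of 8 oligodendrocyte precursor markers 1 was higher, and of 8 astrocyte markers 1 was lower. In the deep layer the meningeal median was -0.44 and the microglia median -0.07, with 0 called in either list. The part of these cells in the cbx differences of Ccnd1, Ube2c and Cdc7 was not tested.

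Replicates of a group differed by transcript length. The 8 members with the longest exons were Cenpf, Rrm1, Mki67, Top2a, Cenpe, Kif11, Kif20b and Mcm2, of 6956 to 15433 exon bases. In cbx superficial replicate 1 they lay on average 0.32 (log2) below their group mean and the other 32 members 0.07 above it. Mki67 was at 20.8, 27.5, 36.3 and 38.0 CPM and Cenpf, a kinetochore protein, at 10.6, 15.3, 19.3 and 21.1 CPM in the 4 cbx superficial libraries. In saline superficial replicate 3 all 8 long members were the lowest of their group, with a mean of -0.20. Over the 40 members the Spearman correlation of exon length with the deviation from the group mean was -0.58 in cbx superficial replicate 1 and -0.46 in saline superficial replicate 3, and between -0.29 and 0.42 in the other 12 libraries, as a description over genes that share a library. In a fit with trends of length and GC content removed, 38 members were called between layers in cbx pools and 28 in saline pools. Over all 20330 genes that fit called 6920 in cbx and 4372 in saline pools, against 6544 and 3739 without the removal.

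Reads of a few members could not be assigned with certainty. Pcna-ps2, a named copy of Pcna, had 6.36 to 13.7 CPM and Ccnb2-ps had 2.01 to 5.95 CPM, so the counts of Pcna and Ccnb2 may be divided with their copies. The copies Ccnb1-ps, Pcna-ps1 and Tyms-ps had at most 0.129 CPM. Exons of Ccne2 overlap those of Ints8 on the opposite strand over 17.4% of their bases, and those of Ccna2 overlap Exosc9 over 12.5%. No other single overlap covered 10% of a member's exon bases, and Mcm7 had 4 of them, the longest with Ap4m1 over 7.25%.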

How the data were processed

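Total RNA of the superficial and deep superior colliculus was sequenced as poly(A)-selected libraries with paired reads, per the labels' protocols. The authors deposited 1 table of raw counts per gene for each of the 14 libraries. The tools FastQC 0.11.9, STAR 2.7.9d, SAMtools 1.14 and featureCounts of Subread 2.0.1 and the builds GRCm39 and mm10 are named in the submitters' processing notes, with no role or order, and the strand setting is not given in the sources used here. The 40 members and all gene lists were chosen with earlier results of these data known.

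Ensembl IDs were matched to symbols, and 52083 of 55359 IDs, with 98.74% of counts, had one; of the listed genes Lin54 alone had no matching ID. Counts were tested with edgeR 4.0.16 in R 4.3.3 (TMM, filterByExpr, group means over all 14 libraries, robust quasi-likelihood test with 10 residual degrees of freedom), with Benjamini-Hochberg adjustment over 20330 genes at 0.05. Folds come from the fitted log2 differences. RPKM used exon lengths of GENCODE M21, whose build, GRCm38, may not be that of the counting. Each library is a pool of 3 brains; nothing says that pools came from separate litters, so p-values measure the spread between these pools. Replicates differed by more than sampling noise (chi-square per gene 7.68 to 51.8 over 18 pairs). The fits were tested on simulated counts.

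Layers with the same number deviated together in 7 of 7 pairs (r 0.184 to 0.395), so a number was taken to mark a pool of brains, and the pool was used as a block in an alternative fit. Genes were named by rule: per layer comparison the 4 S phase and 4 G2/M members with the smallest p, per cbx comparison and interaction every member called or otherwise the 3 with the smallest p, the members of neither list, the members with the other sign, and up to 3 genes of each further list; the remaining members and markers named were chosen after their values were seen. Some genes of the further lists are not reported here. Alternatives used DESeq2 1.42.0, limma 3.58.1 and the settings in the closing section.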

Additional observations from a re-analysis of the deposited data

Results flagged for a closer look

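In groups of 4 libraries a member stood out where its most distant library was further from the nearest of the others, as a share of the group's range, than Dixon's 95% critical value. Chance gives this in about 1 in 20 groups, and 5 of 84 groups tested met it, against 4.2 expected; the 84 are the 40 members and the S phase and G2/M sums in cbx superficial and in cbx deep libraries, and all 5 were single members. Birc5 was at 8.39 CPM in cbx superficial replicate 1 and at 6.62 to 6.80 CPM in the other libraries of that group (gap 0.899 of the range). Ezh2 was lowest in cbx superficial replicate 3, at 21.5 CPM (0.930), and Cdc7 highest in cbx superficial replicate 4, at 25.5 CPM (0.857). Rrm2 was lowest in cbx deep replicate 2, at 9.88 CPM (0.845), and Tyms lowest in cbx deep replicate 1, at 3.71 CPM (0.858).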

How the results depend on the processing

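The count of members called between layers stayed within 33 to 38 of 40 in cbx pools and 24 to 34 in saline pools over all alternatives run, and all calls were higher in the superficial layer. Counts of the cbx comparisons moved more. In the superficial layer the count was 3, and it was 1 with only the groups compared, 0 when tested against a fold of 1.2, 0 with the replicate block, 0 with that block and length and GC trends removed, 0 without saline pool 1 and cbx pool 4, and 0 to 2 when each library was left out. In the deep layer it was 1, and it was 2 with no low-count filter, 2 with DESeq2, 2 with length and GC trends removed, 2 with these trends removed and a replicate block, 0 without saline pool 1 and cbx pool 4, and 1 to 2 when each library was left out; the added call was Hmgb2, lower in cbx. The cause was not tested.

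Numbers did not pair the treatments: same-numbered cbx and saline libraries of a layer had r from -0.284 to -0.0190 over 6 pairs, and the replicate block there left 0 of 19278 genes called in the superficial layer. The replicate block over layers, where numbers were taken to mark pools, called 38 members in cbx and 34 in saline pools and 0 in the interaction. Over all 20330 genes it called 7602 in cbx and 4662 in saline pools.

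Over all genes, 880 were called by cbx in the superficial layer as reported, 1585 with DESeq2, 1459 with no filter, 142 with only the groups compared, 35 against a fold of 1.2, 91 without saline pool 1 and cbx pool 4, and as few as 140 without 1 library. In the deep layer the counts were 373, 901, 566, 611, 4, 14 and as few as 42 in the same order, with 751 after length and GC trends were removed and 103 with the replicate block. The interaction gave 0 as reported, 60 with DESeq2, 256 with no filter and 61 with the replicate block. Between layers, a fold of 1.2 left 3094 of 6544 genes in cbx and 1780 of 3739 in saline pools, and 2133 were called in saline pools without saline pool 1 and cbx pool 4.

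Signs turned where values lay near 0. Leaving out each library gave -0.058 to 0.051 for Cdc7 between layers in cbx pools, -0.051 to 0.027 for Mcm6 between layers in saline pools, -0.11 to 0.11 for Ezh2 by cbx in the superficial layer and -0.012 to 0.14 in the deep layer, where Ezh2 was -0.025 without saline pool 1 and cbx pool 4. With promoter windows from 150 bases before the start, CHR matches stood in 73.7% of G2/M, 3 of 15 S phase and 11.2% of all windows.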

Other observations

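Between layers, Bub1b, Aurkb and Tpx2 had fitted differences of 1.13, 1.23 and 0.91 in cbx pools and of 1.21, 1.37 and 1.16 in saline pools, while Ube2c, Cdc20 and Gins2 had 1.24, 1.15 and 0.94 in cbx pools and 0.90, 0.75 and 0.27 in saline pools. None of these 6 contrasts between treatments passed as an interaction with edgeR (adjusted p = 0.941, 0.892, 0.670, 0.624, 0.544 and 0.426).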
